A study of Bos taurus with 16 samples.

Results

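The genes described are 10 pluripotency factors, POU5F1, NANOG, SOX2, SALL4, LIN28A, LIN28B, ESRRB, TDGF1, STAT3 and PRDM14, in bovine oocytes and preimplantation embryos that developed in vivo. They were chosen by name. All 10 were found among the 27393 loci of the deposited table. Their names stand at 13 loci, because POU5F1, SALL4 and PRDM14 are each listed at 2, and the locus with the higher mean was used. Each of 8 stages had 2 samples, and each sample was 1 oocyte or 1 embryo: mature oocytes (MII), 2-, 4-, 8- and 16-cell embryos (2C, 4C, 8C, 16C), early morulae (EM), compact morulae (CM) and blastocysts (BL). All developed in vivo, and the labels name no treatment, breed, age or dam. RNA was taken from the whole oocyte or embryo and amplified in 2 rounds before SOLiD sequencing. The first 3 stages (6 samples) precede the activation of the embryonic genome (EGA), which in cattle embryos developed in vivo is placed between 4C and 8C, and the later 5 stages (10 samples) follow it.

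POU5F1 (OCT4), NANOG and SOX2 are transcription factors that together maintain the pluripotent state of the inner cell mass and of embryonic stem cells, and SALL4, PRDM14 and ESRRB are partners in the same network. STAT3 carries the signal of leukaemia inhibitory factor (LIF) and related cytokines to the nucleus, and TDGF1 (Cripto) is a membrane co-receptor for NODAL. LIN28A and LIN28B are RNA-binding proteins that block the maturation of let-7 microRNAs.

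Levels are given in CPM, the reads on a locus divided by all reads of the sample, in units of 1e6. CPM is not divided by transcript length, so levels of the 10 genes are compared between stages and never with each other. Sums over lists of markers add CPM of transcripts of different, unknown length. The samples held between 607672 and 3379426 reads, with a median of 1347534, and a count of 3 reads, taken as the detection floor, stood for 0.888 to 4.94 CPM. A level below the floor could not be told apart from absence at this depth, and floors cover counting error only, since amplified copies were not told apart. Differences are log2 differences of the deposited value plus 1, tested by limma with Benjamini-Hochberg adjustment at 0.05 over 9670 loci, and for genes with few reads in a group their size depends on the added 1. Nothing in the labels says that the samples of a stage came from different animals, so p-values measure the spread between these samples.

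Of the 10 genes, 7 passed the filter on reads and could be tested. SOX2 with 67 reads over all 16 samples, ESRRB with 13 and LIN28B with 9 did not. NANOG, TDGF1 and PRDM14 reached the level of the filter in at least 2 samples after EGA but not before it. Genes that passed only through the samples in which they were high had to differ, so the counts below describe these genes and support nothing further. Of the 7 genes, 5 changed across the 8 stages (POU5F1, NANOG, TDGF1, STAT3 and PRDM14), where 66.7% of all loci tested did. The stage effect of TDGF1 was lost with DESeq2 (adjusted p = 0.593). POU5F1, NANOG, PRDM14 and TDGF1 were higher after EGA and STAT3 was lower, and SALL4 and LIN28A did not pass the test. Of all loci tested, 37.9% were higher after EGA and 32.1% were lower, so most loci changed in this comparison. In whole embryos, fewer cells of a type and less RNA per cell cannot be told apart.

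**Figure D1:**
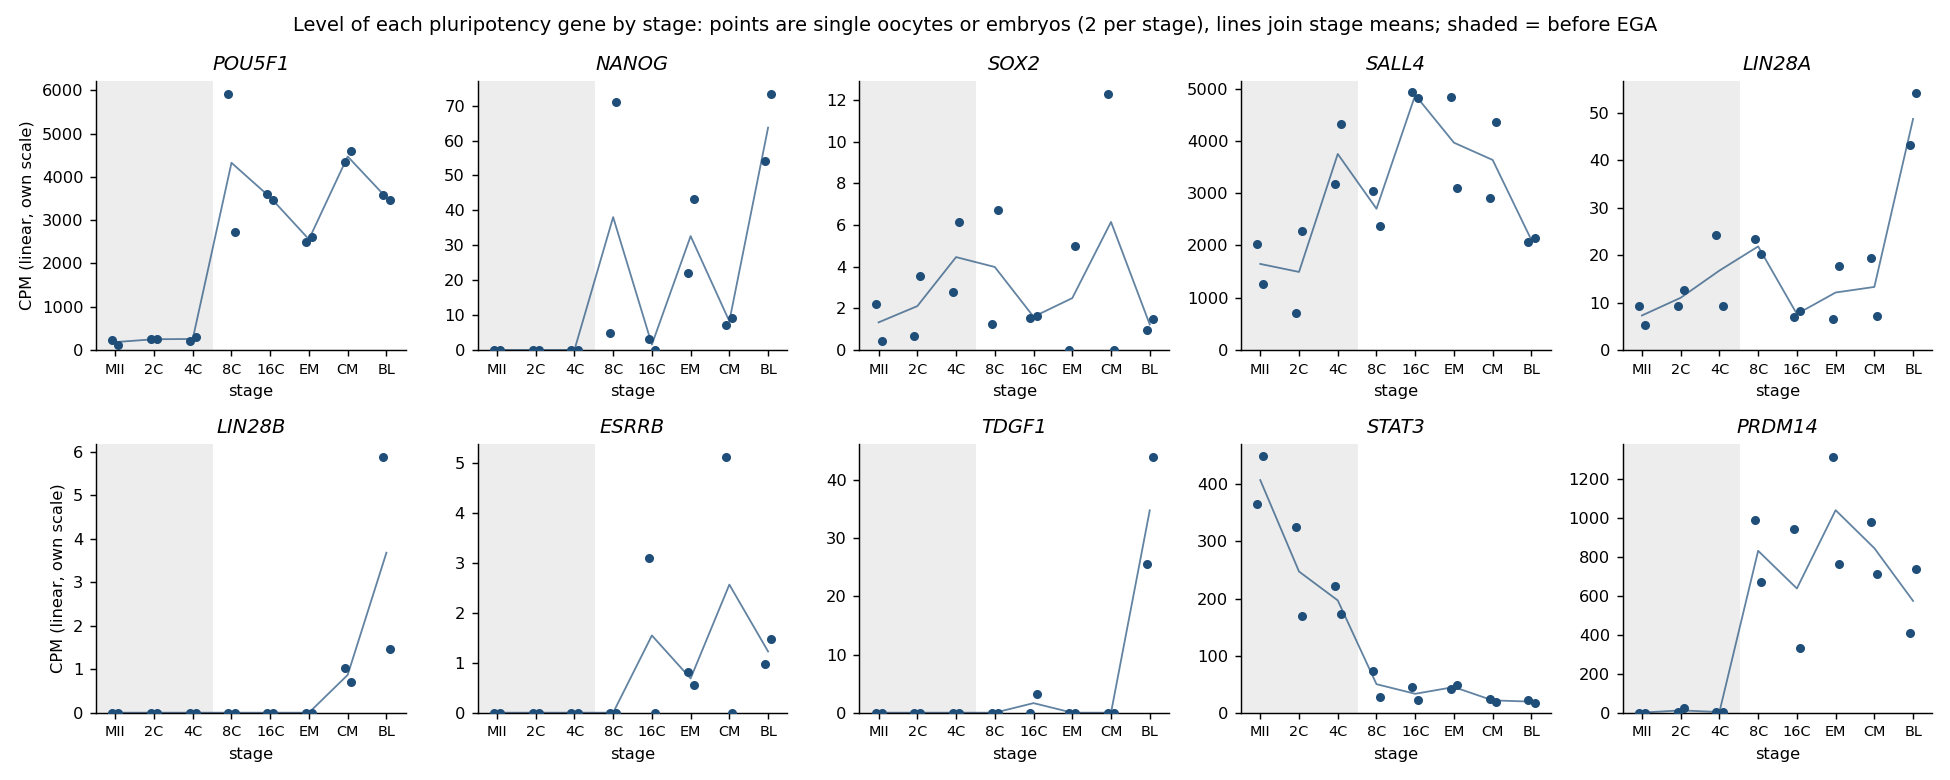
Level in CPM (vertical axis, linear, with its own scale in each panel) of the 10 genes at the 8 stages (horizontal axis). Each point is 1 oocyte or embryo, lines join the means of 2 samples, and the shaded stages precede EGA. POU5F1, PRDM14 and NANOG had their highest samples after the 4C stage, STAT3 had its highest in MII oocytes, and TDGF1 was present almost only in blastocysts.

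POU5F1 (XLOC_039761) was present in every sample and rose sharply at the 8C stage. MII oocytes had 242 and 122 CPM, 2C embryos 247 and 250.0 CPM, and 4C embryos 214 and 295 CPM. The levels were 5926 and 2727 CPM at 8C, 3596 and 3462 CPM at 16C, 2498 and 2616 CPM at EM, 4356 and 4588 CPM at CM, and 3580 and 3461 CPM at BL. The 10 samples after EGA all lay above the 6 before it, with means of 3681 ± 1047 CPM (SD, n = 10) and 228 ± 58.2 CPM (SD, n = 6), or 16.1-fold higher after EGA. The tested log2 difference, on deposited values that are scaled otherwise than CPM, was 3.53 (SE 0.30, adjusted p = 8.4e-08), or 11.5-fold.

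The step from 4C to 8C carried the change of POU5F1, at 3.99 (SE 0.57, adjusted p = 1.7e-04). The 8C embryos differed from each other by more than any other pair after EGA. Without 8C replicate 1 the step was 3.28, and without 8C replicate 2 it was 4.69, and it passed the threshold either way. After 8C no step of POU5F1 passed the threshold. The order of stage means in CPM was CM, 8C, 16C, BL, EM, 4C, 2C and MII. The samples of CM, 8C, 16C and BL overlapped from each stage to the next in this order, and those of EM lay below BL. The 4C samples overlapped with 2C, and in CPM those of MII lay below 2C. In the deposited values, which were the ones tested, MII had 505 and 297 and 2C had 294 and 308, so MII was not below 2C there.

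NANOG (XLOC_056986) had no read in any of the 6 samples before EGA. At 8C the levels were 4.95 and 71.2 CPM, at 16C 3.09 and 0 CPM, at EM 22.1 and 43.2 CPM, at CM 7.18 and 9.28 CPM, and at BL 54.0 and 73.4 CPM. These are small counts, with 4 and 74 reads at 8C, 4 and 0 at 16C, and 55 and 50 at BL. NANOG was thus detected in 9 of 10 samples after EGA, and the missing one, 16C replicate 2, was the library with the fewest reads. Its mean after EGA was 28.8 ± 29.0 CPM (SD, n = 10), at least 18.3-fold higher than a floor of 3 reads in each library before EGA.

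On the log2 scale NANOG was higher after EGA by 4.03 (SE 0.52, adjusted p = 6.8e-06) and higher at 8C than at 4C by 4.73 (SE 1.01, adjusted p = 0.00261). The 8C value rested unevenly on the embryos of that stage, at 6.42 without 8C replicate 1 and 3.04 without 8C replicate 2, both past the threshold. With no read at 4C its size also followed the method, from 2.73 with a pseudocount of 5 to 8.78 with edgeR, and it passed the threshold in both. The ordering of its stages was BL, 8C, EM, CM and 16C, where BL overlapped with 8C and 8C with EM. The changes between the later stages were large and variable. From 8C to 16C the difference was -3.52 (SE 1.01, adjusted p = 0.104), from 16C to EM 3.50 (adjusted p = 0.203) and from CM to BL 2.65 (adjusted p = 0.170), none past the threshold on all 16 samples.

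SOX2 (XLOC_000759) stayed near the floor throughout. It had 0.438 to 6.14 CPM in the 6 samples before EGA and 0 to 12.3 CPM in the 10 after it, with at most 12 reads in a sample and reads in 14 of 16 samples. The means were 2.63 ± 2.10 CPM (SD, n = 6) and 3.09 ± 3.88 CPM (SD, n = 10), and the samples overlapped (two-sided exact permutation test, p = 0.815). The sign of the difference turned with the scaling, from 0.458 in CPM to -0.473 in the deposited values. The highest sample was CM replicate 1, whereas CM replicate 2 had no read. The blastocysts had 0.982 and 1.47 CPM, which is 1 read each.

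SALL4 (XLOC_012596), a zinc finger protein, was abundant both in oocytes and at every later stage. MII oocytes had 2031 and 1260.4 CPM and 2C embryos 716 and 2269 CPM. The levels were 3173 and 4324 CPM at 4C, 3036 and 2365 CPM at 8C, 4932 and 4818 CPM at 16C, 4833 and 3096 CPM at EM, 2901 and 4366 CPM at CM, and 2061 and 2144 CPM at BL. The 4C embryos, which precede EGA, thus lay within the range of the later stages, and in CPM blastocysts lay below every sample from 4C to CM. This picture depended on the scaling. In the deposited values BL replicate 2, at 2315, lay above EM replicate 2, at 2186. The MII oocytes, at 4231 and 3059, also lay within the range of the later stages there.

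The stage effect of SALL4 did not pass the threshold (adjusted p = 0.219), nor did the difference at EGA, which was 0.26 (SE 0.35, adjusted p = 0.518). Its call depended on how samples were scaled. With samples scaled by total reads the difference was 0.74 (adjusted p = 0.0367), but the median of all loci moved to 0.61 under that scaling, against 0.23 with the authors' size factors. Relative to that median SALL4 differed by 0.13 and 0.03 respectively. Without 2C replicate 1, the lowest sample of SALL4, the difference was -0.03.

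PRDM14 (XLOC_014947), a zinc finger protein of the PR domain family known for its part in pluripotency and germ cells, had the largest log2 difference at EGA of the 7 genes tested. It had 0.886 and 0 CPM in MII oocytes, 1.33 and 22.2 CPM at 2C, and 5.56 and 1.23 CPM at 4C. Levels were 989 and 672 CPM at 8C, 940.3 and 334 CPM at 16C, 1314 and 764 CPM at EM, 977 and 711 CPM at CM, and 409 and 738 CPM at BL. The 10 samples after EGA lay above all 6 before it. The means were 785 ± 288 CPM (SD, n = 10) and 5.20 ± 8.55 CPM (SD, n = 6).

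Of the 89 PRDM14 reads before EGA, 75 came from 2C replicate 2, the most deeply sequenced library. Of the other 5 libraries, 4 had 0 or 2 reads, under the floor. With those 4 set at a floor of 3 reads per library, the mean after EGA was at least 137.5-fold the mean before it, and at least 326-fold without 2C replicate 2. On the log2 scale the difference at EGA was 7.62 (SE 0.51, adjusted p = 1.0e-08) and the step from 4C to 8C was 7.84 (SE 0.99, adjusted p = 6.2e-05). Leaving out 4C replicate 1 gave 8.68 for this step and leaving out 4C replicate 2 gave 7.0, both called. From 8C to BL the stages overlapped in the order of their CPM means, EM, CM, 8C, 16C and BL, and no later step passed the threshold.

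ESRRB (XLOC_003920), an orphan nuclear receptor, had no read up to the 8C stage and 13 reads in all. It had 3.09 and 0 CPM at 16C, 0.817 and 0.554 CPM at EM, 5.13 and 0 CPM at CM, and 0.982 and 1.47 CPM at BL. The difference before and after EGA was not past the threshold (two-sided exact permutation test, p = 0.110).

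STAT3 (XLOC_028088) ran the other way and was highest in MII oocytes. The levels were 366 and 449.6 CPM at MII, 325 and 169 CPM at 2C, and 222 and 172 CPM at 4C. They were 73.0 and 26.9 CPM at 8C, 44.8 and 21.4 CPM at 16C, 41.7 and 48.2 CPM at EM, 24.6 and 18.6 CPM at CM, and 22.6 and 16.1 CPM at BL. All 10 samples after EGA lay below all 6 before it, with means of 33.8 ± 17.9 CPM (SD, n = 10) and 284 ± 114 CPM (SD, n = 6), or 8.40-fold lower after EGA.

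The tested log2 difference of STAT3 at EGA, on the deposited values rather than CPM, was -3.57 (SE 0.33, adjusted p = 2.3e-07), or 11.9-fold lower. Of its steps, 8C against 4C gave -2.12 (SE 0.64, adjusted p = 0.0181), and 2C against MII gave -1.68 (SE 0.64, adjusted p = 0.191), which did not pass the threshold. The 8C call was lost without 4C replicate 1 (-1.94, adjusted p = 0.116), without 4C replicate 2 (-2.31, adjusted p = 0.068) or without 8C replicate 2 (-1.28, adjusted p = 0.172), and it was -2.97 without 8C replicate 1. It was also lost with edgeR (-1.82, adjusted p = 0.0552). MII oocytes lay above every 2C embryo, and 2C and 4C overlapped. From 8C on the stages overlapped in the order of their CPM means, 8C, EM, 16C, CM and BL.

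TDGF1 (XLOC_037719) appeared in the blastocyst. It had 25.5 and 44.0 CPM at BL, from 26 and 30 reads, 3.29 CPM from 2 reads in 16C replicate 2, and no read in the other 13 samples. The blastocyst mean of 34.8 ± 13.1 CPM (SD, n = 2) was at least 13.3-fold higher than a floor of 3 reads in each CM library. From CM to BL the difference was 5.19 (SE 0.71, adjusted p = 6.4e-04), and with no read at CM its size followed the pseudocount, at 3.02 with a pseudocount of 5 and 6.17 with one of 0.5. The difference at EGA of 1.25 (SE 0.36, adjusted p = 0.00666) averaged 5 later stages, of which BL held 56 of the 58 reads. On the recovered reads the EGA call was lost with edgeR (adjusted p = 1) and DESeq2 (adjusted p = 0.489), and edgeR gave 8.34 for BL against CM (adjusted p = 0.0965).

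LIN28A (XLOC_030833) had reads in all 16 samples and its highest level in blastocysts. It had 5.26 to 24.3 CPM in the 6 samples before EGA, with the lowest in MII replicate 2 and the highest in 4C replicate 1. It had 23.5 and 20.2 CPM at 8C, 6.95 and 8.23 CPM at 16C, 6.54 and 17.7 CPM at EM, 19.5 and 7.14 CPM at CM, and 43.2 and 54.3 CPM at BL. The blastocysts lay above all other 14 samples. From CM to BL the difference was 1.78 (SE 0.68, adjusted p = 0.169), not past the threshold.

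At EGA the difference of LIN28A was 0.13 (SE 0.35, adjusted p = 0.75), and its sign turned to -0.09 without 4C replicate 2. Its stage effect stood just outside the threshold (adjusted p = 0.0592) and inside it with a pseudocount of 5 (adjusted p = 0.0329) and with DESeq2 (adjusted p = 0.0324). LIN28B (XLOC_070463) had no read up to the EM stage. It had 1.03 and 0.714 CPM at CM, 1 read each, and 5.89 and 1.47 CPM at BL, 6 and 1 reads. The difference at EGA was not past the threshold (two-sided exact permutation test, p = 0.330), whereas limma without the filter on reads called it, at 0.62 (SE 0.22, adjusted p = 0.0303), and its stage effect (adjusted p = 0.00684). Its 9 reads lie in 4 samples.

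The step from 4C to 8C held 4 of the 5 calls made over the 7 consecutive steps, POU5F1, NANOG and PRDM14 upward and STAT3 downward, where 36.8% of all loci were called. The remaining call was TDGF1 from CM to BL, where 4.42% of loci were called. In the other 5 steps limma, edgeR and DESeq2 each called 0 of the 7 genes on all 16 samples. Without 2C replicate 1 the difference of PRDM14 from MII to 2C was 4.07, and without 8C replicate 1 that of NANOG from 8C to 16C was -5.21. Both were past the threshold in those fits, where larger shares of all loci were called than on all 16 samples. On all 16 samples the shares of all loci called in the 5 steps were 1.42% from MII to 2C, 0.0% from 2C to 4C, 0.858% from 8C to 16C, 0.103% from 16C to EM and 0.0% from EM to CM. At an unadjusted p under 0.05 these steps held PRDM14 and STAT3 from MII to 2C, SALL4 from 2C to 4C, LIN28A and NANOG from 8C to 16C, NANOG from 16C to EM, and POU5F1 from EM to CM.

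**Figure D2:**
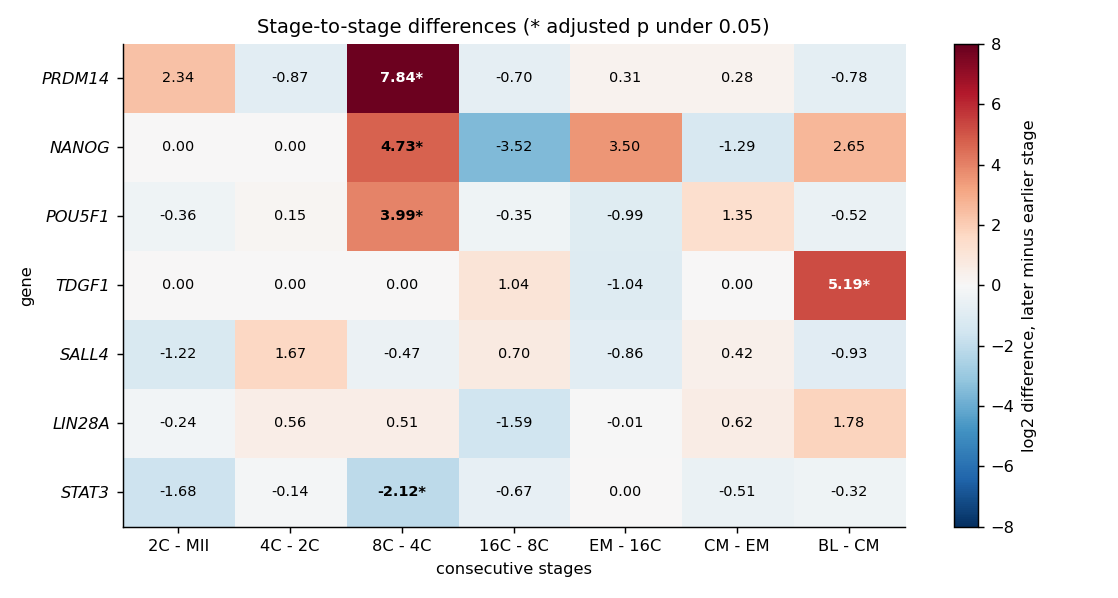
Log2 difference between consecutive stages (later minus earlier, columns) for the 7 genes tested (rows), as colour and number, with an asterisk where the adjusted p was under 0.05. The 8C against 4C column holds 4 asterisks, with values of 7.84, 4.73, 3.99 and -2.12, and the blastocyst column holds 1.

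Among the stages after EGA, morulae and blastocysts (EM, CM and BL, 6 samples) were set against 8C and 16C embryos (4 samples). Of the 7 genes, 0 were called by limma, edgeR or DESeq2, where 0.393% of all loci were higher and 0.6% lower. At an unadjusted p under 0.05 limma had 2 of them, NANOG with 1.77 (SE 0.65, adjusted p = 0.205) and TDGF1 with 1.21 (SE 0.46, adjusted p = 0.213). The value of NANOG depended on the 8C embryos, being 2.62 without 8C replicate 2 and 0.92 without 8C replicate 1. Only the first was past the threshold, in a fit where a larger share of all loci was called than on all 16 samples. POU5F1 differed by -0.44 (SE 0.37, adjusted p = 0.608) and PRDM14 by -0.11 (SE 0.64, adjusted p = 0.958).

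Of the genes called at EGA, POU5F1, PRDM14, NANOG, TDGF1 and STAT3 kept their direction and call under all 3 scalings of the samples. POU5F1 was higher by 3.53 with the authors' size factors, 3.64 with TMM factors and 4.01 with total reads. PRDM14 was higher by 7.62, 7.70 and 7.89, and STAT3 differed by -3.57, -3.45 and -3.10 in the same order. The median of all loci was 0.23, 0.33 and 0.61, so that relative to it POU5F1 stood at 3.30, 3.32 and 3.40.

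**Figure D3:**
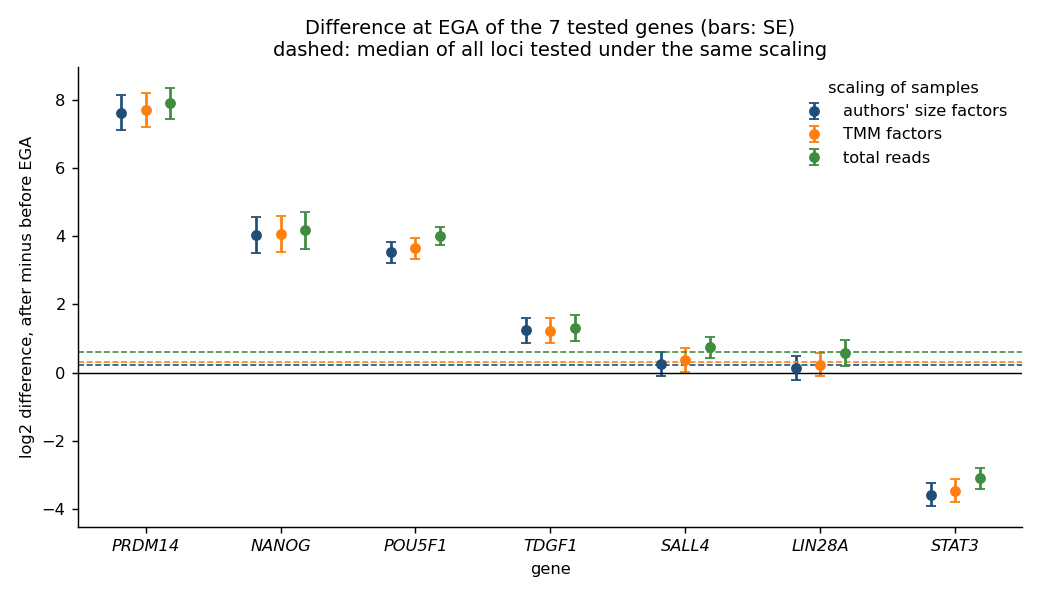
Log2 difference after minus before EGA (vertical axis) of the 7 genes tested, with SE bars, under 3 scalings of the samples, and the median of all loci under each as a dashed line. PRDM14, NANOG, POU5F1 and TDGF1 lie above the medians and STAT3 below 0 under each scaling, while SALL4 and LIN28A lie close to the median of the same scaling.

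POU5F1, SALL4 and PRDM14 are each listed at a second locus with fewer reads. The numbers in the locus names run along most chromosomes in 2 ascending series, shown on 28 of 29 autosomes, and the 2 loci of each of these genes lie in different series with different named neighbours. Strand is not given in the sources used here, so reads from a gene and from a transcript on the opposite strand cannot be told apart, at these loci or at those of the other 7 genes. The used locus held 98.7% of the mean CPM under the name POU5F1, 93.1% under SALL4 and 96.3% under PRDM14.

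The second locus of POU5F1 (XLOC_039364) had 1.31 to 9.76 CPM in the 6 samples before EGA and 17.0 to 67.8 CPM in the 10 after it, without overlap. Its difference at EGA was 2.42 (SE 0.30, adjusted p = 3.6e-06). The second locus of PRDM14 (XLOC_015210) had no read before EGA, not even in 2C replicate 2, and 13.9 to 79.7 CPM after it. Its difference at EGA was 4.93 (SE 0.34, adjusted p = 1.2e-08), given as a description, since this locus passed the filter only through the samples after EGA.

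The second locus of SALL4 (XLOC_013017) followed another order of stages than the used locus. It was highest at EM, with 494 and 839 CPM, and next at BL, with 415 and 314 CPM, against 92.8 to 193 CPM in the 6 samples of 8C, 16C and CM. Its stage effect passed the threshold (adjusted p = 0.0480) and its difference at EGA did not (0.66, SE 0.32, adjusted p = 0.0760). The used locus took 78.7% to 97.9% of the SALL4 reads in the samples after EGA. The difference between the 2 loci was not tested.

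**Figure D4:**
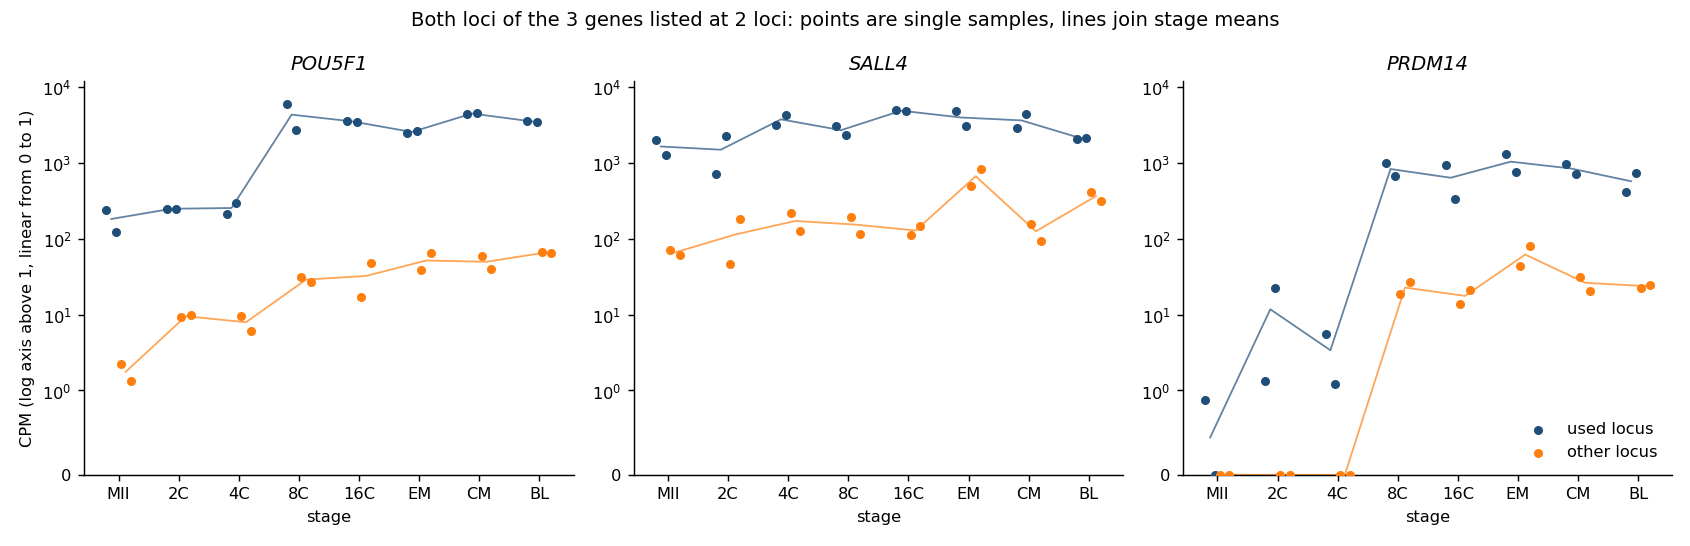
CPM (vertical axis, logarithmic above 1 and linear from 0 to 1) by stage of the used locus (blue) and the other locus (orange) of POU5F1, SALL4 and PRDM14. Points are single samples and lines join stage means. Both loci of POU5F1 and PRDM14 are higher from 8C on, and the other locus of SALL4 peaks at EM with 494 and 839 CPM.

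KLF17, TBX3, MYCN, PIAS3, TYK2, ACVR2B and IGF2BP1 of the lists that follow reached the filter level in at least 2 samples only after EGA. TCL1A and STAT5B did so only before it. Only the 4 called genes with the largest change in each list were checked for this. Others can have passed in the same way. KLF5, OTX2, NR5A2 and IL6, for example, had means of 0.736, 0.393, 0.983 and 0.227 CPM before EGA. Genes that passed in this way had to differ. Their values and adjusted p, and the counts and medians of the lists, are therefore descriptions.

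Of 30 further genes of the pluripotency network, 26 were found and 16 could be tested. After EGA 10 of these were higher and 4 lower, with a median log2 difference of 2.78 against 0.23 over all loci, and 37.9% and 32.1% of all loci called. KLF17, a Krüppel-like factor, was higher by 7.77 (SE 0.42, adjusted p = 1.4e-09), from 0.608 ± 0.679 CPM (SD, n = 6) to 714 ± 1035 CPM (SD, n = 10). Its highest sample was 8C replicate 2 at 3582 CPM, without which the mean after EGA was 396 ± 250.3 CPM (SD, n = 9). TBX3, a T-box factor, was higher by 5.88 (SE 0.49, adjusted p = 8.2e-08). MYCN, a MYC family factor, had no read before EGA and 23.4 ± 12.4 CPM (SD, n = 10) after it, a log2 difference of 4.54 (SE 0.43, adjusted p = 3.0e-07).

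TCL1A, a co-activator of AKT kinase, was lower after EGA by a log2 difference of -4.45 (SE 0.47, adjusted p = 7.4e-07). The other 3 that were lower were DPPA3, GBX2 and ETV5, named here after their values were seen. DPPA3 (Stella), a maternal factor that shields methylated DNA, is the neighbour of NANOG in the locus numbering and moved the other way, by -3.16 (SE 0.32, adjusted p = 5.1e-07). TFCP2L1, NR0B1, DNMT3L and FOXD3 are listed at 0 in every sample, and NR0B1 lies in a stretch of 2578 consecutive loci at 0 that holds none of the 10 pluripotency genes.

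Around STAT3, 18 of 19 genes of LIF and STAT3 signalling were found and 10 tested, with 3 higher and 4 lower after EGA and a median of -0.50. Over all loci 37.9% were higher and 32.1% lower, with a median of 0.23. LIF itself had 1 read in all, and OSM, CNTFR, STAT5A and SOCS3 are listed at 0. STAT5B, a related factor at the locus numbered next to STAT3, differed by -2.70 (SE 0.45, adjusted p = 8.3e-05), and the kinase JAK1 by -1.72 (SE 0.33, adjusted p = 2.4e-04). PIAS3, an inhibitor of STAT3, was higher by 2.23 (SE 0.39, adjusted p = 1.1e-04), and the kinase TYK2 by 1.80 (SE 0.48, adjusted p = 0.00367).

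Around TDGF1, 15 of 16 genes of NODAL signalling were found and 8 tested, with 2 higher and 4 lower after EGA and a median of -1.06, beside 37.9%, 32.1% and 0.23 over all loci. NODAL and the receptor ACVR1C are listed at 0, so the ligand was not detected in the blastocysts that had TDGF1. GDF3, a related ligand, differed by -2.73 (SE 0.43, adjusted p = 4.8e-05) and the receptor ACVR1B by -2.55 (SE 0.59, adjusted p = 0.00123). SMAD4, the shared signal transducer, was higher by 1.81 (SE 0.30, adjusted p = 8.1e-05), and the receptor ACVR2B by 1.47 (SE 0.48, adjusted p = 0.0125).

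Around LIN28A and LIN28B, 13 of 15 genes of let-7 processing and its targets were found and 8 tested, 4 higher and 4 lower after EGA, with a median of 0.39, beside 37.9%, 32.1% and 0.23 over all loci. Of the 4 that were lower, AGO2 stood at the threshold (adjusted p = 0.04998). XPO5, which exports microRNA precursors from the nucleus, was higher by 5.53 (SE 0.33, adjusted p = 3.4e-09), from 25.8 ± 12.9 CPM (SD, n = 6) to 1761 ± 912 CPM (SD, n = 10). DROSHA, the nuclear enzyme that releases those precursors, was lower, with a difference of -3.18 (SE 0.30, adjusted p = 2.3e-07). The RNA-binding proteins IGF2BP1 and IGF2BP3 moved in opposite directions, by 5.35 (SE 0.36, adjusted p = 1.1e-08) and -4.09 (SE 0.56, adjusted p = 1.2e-05).

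**Figure D5:**
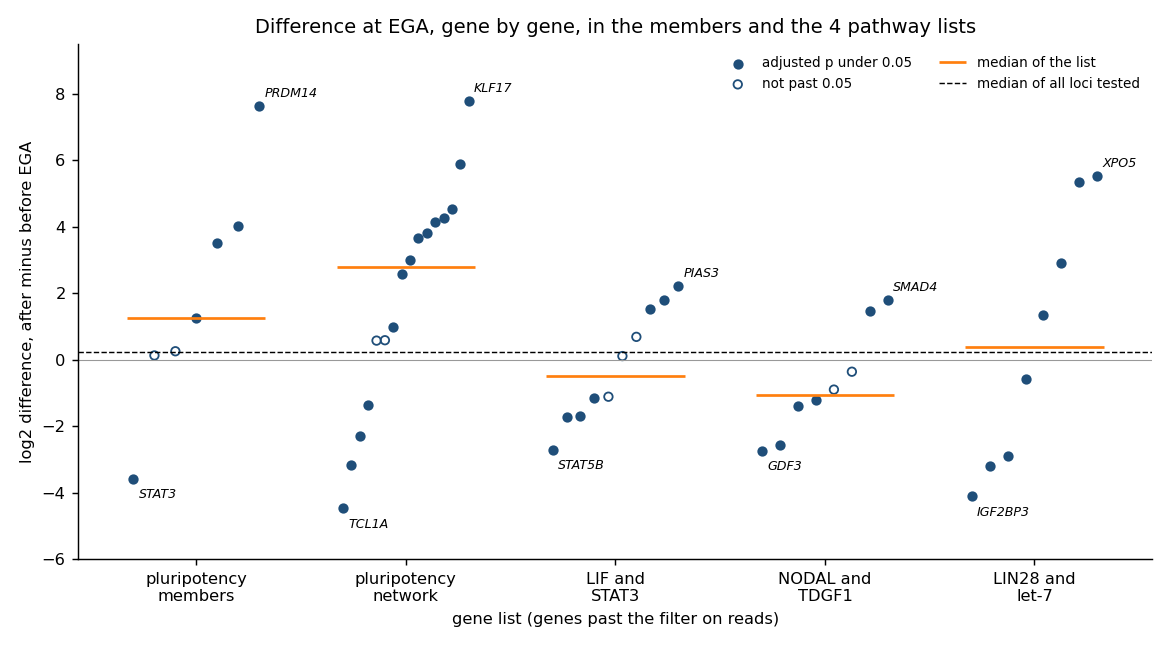
Log2 difference after minus before EGA (vertical axis) of each tested gene among the 10 pluripotency genes and in the 4 lists around them (horizontal axis). Filled points passed an adjusted p of 0.05 and open points did not, orange bars are list medians and the dashed line is the median of all loci, 0.23. The list medians are 1.25, 2.78, -0.50, -1.06 and 0.39 from left to right.

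The loci whose profiles over the 16 samples were most like that of POU5F1 were NDUFA6, NOP56 and SLC30A2, with Pearson r of 0.97, 0.96 and 0.96 on the log2 scale. Within the 10 samples after EGA the same r were 0.79, 0.88 and 0.71. Those most like NANOG were SUGP1, LAMTOR2 and MRPL23, with r of 0.95, 0.94 and 0.93 over the 16 samples and 0.87, 0.86 and 0.83 within the 10. All points share their libraries and depths, and the first set of values also spans the step at EGA. The loci were picked for the highest r on these same samples, so both sets of r are descriptions. SUGP1 and LAMTOR2 had no read before EGA and means of 5.66 and 5.47 CPM after it, near the floor. SOX2 did not pass the filter, and no such loci were sought for it.

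Markers of other cell types moved with several of these genes, and their part in the results was not tested. All 12 trophectoderm markers were found, and their summed level was 23.5 to 61.0 CPM in the 6 samples before EGA, 86.6 to 576 CPM from 8C to CM, and 1744 and 1571 CPM in the blastocysts where TDGF1 and LIN28A were highest. In blastocysts KRT8, KRT18 and PTGS2 gave 31.0%, 22.8% and 14.9% of their mean sum, whereas TEAD4 gave 0.40% and IFNT2 0.13%. CDX2, a defining marker, had 1 read in all, which was not in a blastocyst, and ELF5 had no read there. The 8 hypoblast markers summed to 5.62 to 28.0 CPM before EGA and 139 to 609 CPM after it, with 1 read for GATA4. GATA6 alone gave 73.4% of their mean sum after EGA.

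The 10 oocyte markers summed to 3076 to 10095 CPM before EGA and to 7.86 to 56.4 CPM from 16C on, and BMP15, listed at 0, lies in the same stretch of loci at 0 as NR0B1. H1FOO, the oocyte linker histone, alone gave 88.7% of the mean sum before EGA and 91.8% of the sum in 8C replicate 2. Among 8C embryos the sum was 26.0 CPM in replicate 1 and 1467 CPM in replicate 2, the embryo with the lower STAT3 and POU5F1 and the higher NANOG. The 9 cumulus and granulosa markers summed to 75.8 to 300 CPM before EGA and 0 to 18.3 CPM after it, and HAS2 alone gave 96.4% of the mean sum before EGA. Within that period the sum was 75.8 and 111 CPM at MII, where STAT3 was highest, and 265 and 239 CPM at 4C, where it was lower. FOXL2 and AMH are listed at 0 in every sample.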

How the data were processed

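The deposited signal values of 16 single oocytes and embryos are read counts that the authors divided by a size factor per sample. Their processing notes name cutadapt, FastQC, TopHat, Cufflinks and HTSeq, and the build, strand and handling of multiply mapped reads are not given in the sources used here. In each sample 100% of values were whole multiples of the smallest (tolerance 0.01), so whole reads were recovered and levels computed as CPM.

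Differences were tested on log2(deposited value + 1) by limma 3.58.1 (R 4.3.3; empirical Bayes with trend, 8 stages) on 9670 loci kept by filterByExpr, checked on simulated counts. Genes below the filter were tested by exact permutation of CPM. Alternatives were other scalings, pseudocounts and filters, edgeR 4.0.16, DESeq2 1.42.0, a replicate block, a model of 2 groups, summed loci and each sample left out.

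The 10 genes and all lists were chosen with earlier results of these data known. Named are the 10 genes, the 4 called genes of each list with the largest change at EGA, and the 3 loci most like POU5F1 and NANOG; the rule also held SOX2, which did not pass the filter. AGO2 was matched by its synonym EIF2C2. Sequences and promoter motifs were not analysed here. Samples of a stage differed by more than counting noise; repeat libraries of 1 amplified sample could do so too, and this was not tested.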

Additional observations from a re-analysis of the deposited data

Results flagged for a closer look

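Dixon's criterion for a single far sample was applied to 16 groups of values, and chance alone would pick out about 1 in 20. It picked out 2. PRDM14 stood at 22.2 CPM in 2C replicate 2, from 75 reads, where the nearest of the other 5 samples before EGA had 5.56 CPM, and the gap was 0.75 of the range. LIN28B stood at 5.89 CPM in BL replicate 1, from 6 reads, where the nearest of the other 9 samples after EGA had 1.47 CPM, and the gap was 0.751 of the range.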

How the results depend on the processing

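Across up to 26 alternatives, including 16 that left out 1 sample each, 138 of 153 counts of called genes were equal to the reported ones and 151 lay within 1.5 times of them, and 566 of 580 single values had the same direction and side of the threshold. Many of the 580 could not move in size, so the 566 are no measure of robustness. Leaving out a sample of a stage outside a step left the value of that step unchanged. NANOG at EGA stayed at 4.03 when any sample before EGA was left out. An equal count need not hold the same genes: with DESeq2 the 5 genes with a stage effect included LIN28A and not TDGF1. The number of genes higher after EGA ranged from 3 to 5 and the number lower was 1 throughout. Over the 7 steps edgeR made 3 calls where limma made 5, and leaving out 1 sample gave 4 to 6. Leaving out each sample gave 0 to 1 genes higher in EM, CM and BL than in 8C and 16C, and the 1 was NANOG without 8C replicate 2. Signs turned for SALL4 at EGA without 2C replicate 1 (-0.028), for LIN28A at EGA without 4C replicate 2 (-0.092) and for LIN28A from 4C to 8C without 4C replicate 2 (-0.16), none past the threshold, with highest values on leaving out a sample of 0.54, 0.35 and 1.17, and for SOX2 with the deposited values in place of CPM (-0.473, chosen after seeing the data; exact permutation p = 0.819), and the cause was not tested. The difference at EGA ranged from 3.38 to 4.01 for POU5F1, 6.46 to 8.20 for PRDM14, 2.24 to 7.47 for NANOG, 0.68 to 2.47 for TDGF1 and -3.74 to -3.10 for STAT3, with the extremes of NANOG set by a pseudocount of 5 and by edgeR. The stage effect of TDGF1 was lost with DESeq2 (adjusted p = 0.593), which gave no adjusted p for TDGF1 from CM to BL, and STAT3 from 4C to 8C was lost with edgeR (adjusted p = 0.0552).

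Replicate numbers did not pair the samples: over 28 pairs of stages, deviations of same-numbered samples correlated at -0.26 to 0.13, and 1 pair was over 0.1. With the replicate number as a block, 5 genes had a stage effect, 4 were higher and 1 lower after EGA, and 5 calls were made over the steps. Depth limits SOX2, ESRRB and LIN28B, which had at most 12 reads in a sample.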
